A study of Mus musculus with 95 samples.

Results

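The genes for the subunits of the mitochondrial respiratory chain and ATP synthase were followed in the kidneys of pristane-SNF1 mice and their untreated controls. A gene belonged to the set if its symbol in the array annotation matched the naming pattern of complex I (Nduf, then a, b, c, s or v and a number), complex II (Sdh), complex III (Uqcr and Cyc1), complex IV (Cox5 to Cox8 followed by a, b or c) or ATP synthase (Atp5). The pattern takes no Cox4 gene. This gave 76 genes with 131 probe sets, out of 17097 genes named by probe sets with a single symbol and 45037 probe sets tested. Each gene was read from the probe set that was brightest on average over the 95 arrays of all groups. Complex I held 31 of the genes, complex II 4, complex III 8, complex IV 16 and ATP synthase, named complex V here, 17. Ndufa4, which carries a complex I name but is a subunit of cytochrome c oxidase, was counted in complex IV, as was Cox7a2l, a supercomplex factor. All but 2 genes, Cox7b2 and Cox8c of complex IV, had a mean above the 40th percentile of all probe sets, and only Cox7b2 reached the floor of the scale, at 2.21, on some arrays.

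Oxidative phosphorylation passes electrons from NADH, through complex I, and from succinate, through complex II, to ubiquinone, then through complex III and cytochrome c to complex IV, where oxygen is reduced. Complexes I, III and IV pump protons across the inner mitochondrial membrane, and ATP synthase uses the resulting gradient to make ATP. In the kidney, the proximal tubule, the thick ascending limb and the distal convoluted tubule are rich in mitochondria, which power salt and solute transport. Some complex IV subunits exist as tissue isoforms, one found in most tissues and another mainly in heart and skeletal muscle or in testis.

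SNF1 mice are the F1 cross of the SWR and NZB strains and are prone to lupus nephritis with age. Female mice 9 weeks old received pristane, a hydrocarbon oil, by intraperitoneal injection, and age-matched mice of the same cross were left untreated, with no sham injection described. There were 7 untreated mice at week 0, 10 at week 2, 9 at week 4, 10 each at weeks 8 and 12 and 5 at week 14. There were 9 pristane-SNF1 mice at week 2, 10 at week 4, 8 each at weeks 8 and 12 and 9 at week 14. Each array held the RNA of 1 kidney sample, and values are RMA log2 intensities.

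The arrays read as kidney. All 8 measured proximal tubule markers were above the floor on every array, with a mean over the list between 10.02 and 11.82 per mouse, whereas 6 skeletal muscle markers averaged between 2.92 and 3.53. Markers of the adrenal gland, which lies beside the kidney, averaged between 3.58 and 9.12 over 10 genes, so some samples carried adrenal RNA. One control stood apart from its label. Untreated mouse 10 of week 12 had a macrophage and monocyte marker mean 3.67 above the average of all untreated mice and a tubular injury marker mean 2.32 above it on the log2 scale. The tests, list counts and correlations that used the values of this mouse are also given without it. The highest untreated mouse of week 8 had a macrophage and monocyte marker mean 2.10 above the untreated average, against 1.94 in the highest pristane mouse of week 8. No untreated mouse of week 8 had a tubular injury mean more than 0.15 above it. With each week 8 mouse left out in turn, 0 members passed, but the correlations were not repeated without one. No 2 arrays were identical.

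At weeks 2, 4, 8 and 12 no subunit gene passed the test in either direction. In limma, with Benjamini-Hochberg adjustment over all probe sets, 0 of 76 members had an adjusted p under 0.05 in any of these weeks. Among all probe sets the shares called lower and higher were 0.0178% and 0.231% at week 2, 0.0133% and 0.124% at week 4, 0% and 0.0866% at week 8, and 0% and 0.0244% at week 12, so few genes of any kind passed then. At an unadjusted p under 0.05, 4 members were lower and 1 higher at week 2, against 3.69% and 3.45% of all probe sets. At week 4, 2 were lower and 1 higher, against 1.95% and 2.93%. At week 8, 0 were lower and 0 higher, against 0.899% and 2.73%, and at week 12, 0 were lower and 2 higher, against 1.73% and 4.44%. The 2 of week 12 were Cox6b2 and Cox8b, both tissue isoforms. A trended and robust limma fit also called 0 members in these weeks. The median log2 difference over the members was -0.00 at weeks 2 and 4, 0.01 at week 8 and -0.03 at week 12. Without untreated mouse 10 the median at week 12 was -0.05 and still 0 members passed, with 5 lower and 2 higher at an unadjusted p under 0.05, against 1.71% and 8.17% of all probe sets.

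The level of each complex was also followed over the weeks, as the group mean of the log2 difference from the average of all untreated mice. Complex I lay at 0.08 ± 0.07 (SD, n = 10) in untreated and 0.06 ± 0.05 (SD, n = 9) in pristane mice at week 2, and at -0.06 ± 0.11 (SD, n = 10) and -0.09 ± 0.14 (SD, n = 8) at week 12. Complex II went from 0.06 and 0.03 at week 2 to -0.06 and -0.11 at week 12, and complex III from 0.09 and 0.09 to -0.09 and -0.09. Over the 8 groups of weeks 2 to 12 complex IV means lay between -0.04 and 0.04, and complex V means between -0.08 and 0.07. At each of these weeks the untreated and pristane means of all 5 complexes were less than 1 SD apart. Without untreated mouse 10 of week 12, the untreated means of that week were -0.04 for complex I, -0.02 for complex II, -0.07 for complex III, -0.03 for complex IV and -0.02 for complex V (n = 9). In complexes II and V the distance to the pristane mean was then above the untreated SD, of 0.08 and 0.04, and below the pristane SD, of 0.14 and 0.09.

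At week 14 the untreated means of the 5 complexes lay between -0.03 and 0.01. The pristane means were -0.47 for complex I, -0.58 for II, -0.55 for III, -0.29 for IV and -0.38 for V, with SDs from 0.21 to 0.35 (n = 9). The highest pristane mouse lay above the highest untreated one in complexes III and V.

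The change at week 14 was seen gene by gene. Of the 76 members, 25 were lower in pristane-SNF1 than in untreated kidneys at an adjusted p under 0.05 and 0 were higher. This is 32.9% of the members, against 3.73% of all probe sets called lower and 4.57% called higher. At an unadjusted p under 0.05, 66 members were lower and 0 higher, against 13.4% of all probe sets lower and 10.2% higher. The estimated difference was below 0 for 74 of 76 members, with a median of -0.44 on the log2 scale, while over all probe sets the median was 0.00 and 54.9% were below 0. Members are brighter than most probe sets. Among the 27023 probe sets above the 40th percentile, fitted alone, 49 of 74 members were lower, against 13.1% of those probe sets. Most members lie well above that cut-off, so this share is not matched to their brightness. The falls were small, and 0 members passed with a fold change over 2 in their brightest probe set. Of all probe sets, 0.744% were lower by that rule and 1.89% higher. A second, dimmer probe set of Ndufc1 met it, at -1.01 with adjusted p = 0.0433 in limma. In whole-kidney RNA, fewer cells of a type and less RNA per cell cannot be told apart.

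**Figure D1:**
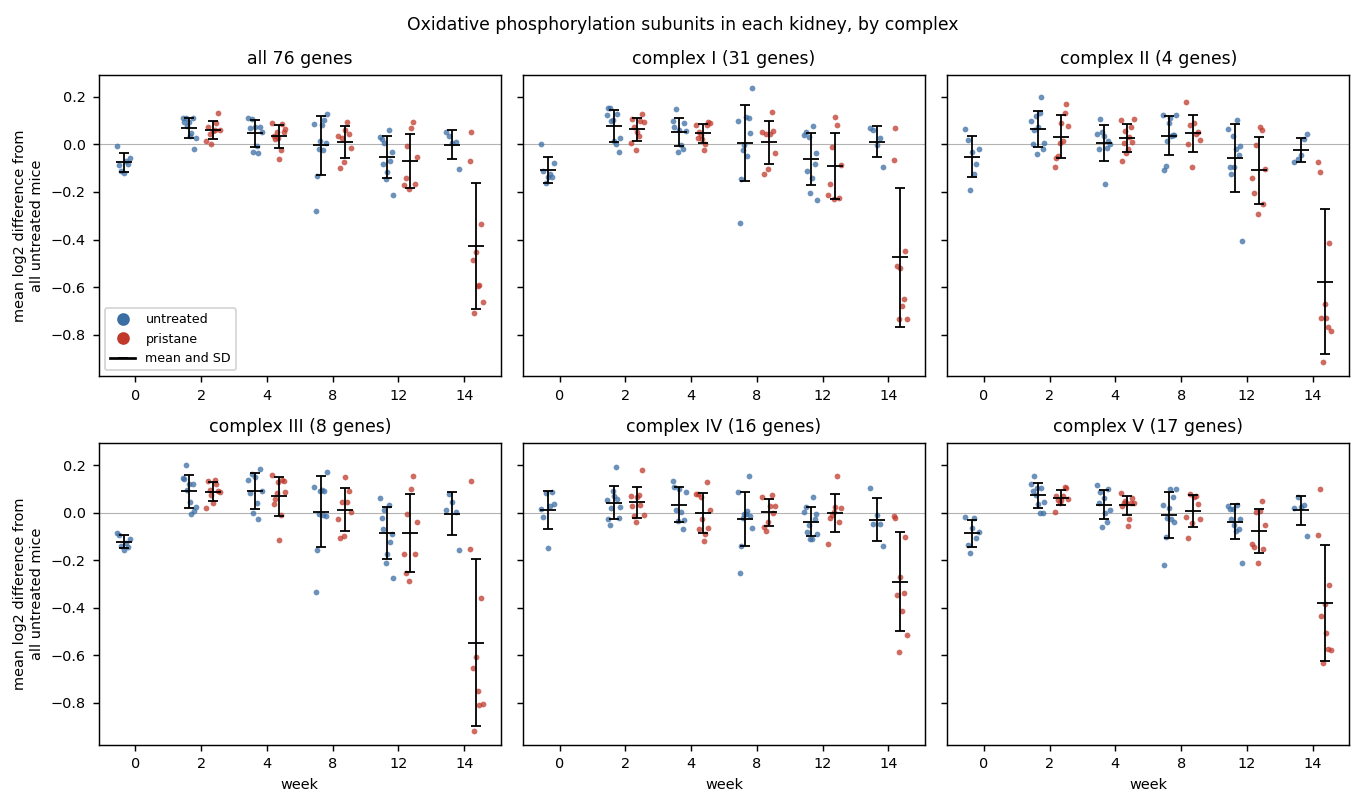
Mean log2 difference of the subunit genes from their average over all untreated mice (vertical axis) by week (horizontal axis), for all 76 genes and for each complex. Each point is 1 mouse, blue untreated and red pristane, and black bars give the group mean and SD. The groups overlap up to week 12, and at week 14 the pristane mean over all genes is -0.43, with 7 of 9 mice below every untreated mouse and the other 2 among them.

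The fall was uneven between mice. Over all 76 genes, the mean difference from the average of all untreated mice was -0.71 in the lowest of the 9 week 14 pristane mice, -0.49 in the median one and 0.05 in the highest. In the 5 untreated mice of week 14 it was 0.05, 0.03, 0.00, 0.01 and -0.11. Pristane mouse 1, at -0.07, lay inside the range of these 5 and mouse 2, at 0.0537, just above their highest, at 0.0519. The other 7, from -0.71 to -0.33, lay below all 51 untreated mice of the series. Mice 3, 4, 5, 6, 7 and 9 each had between 71 and 72 of the 76 genes below all 5 untreated mice, mouse 8 had 53, mouse 1 had 24 and mouse 2 had 8. Mouse 2 also had 24 genes above all 5 untreated mice. The SD of the members was larger in the pristane than in the untreated group for 74 of 76 genes, with medians of 0.30 and 0.10. Neither this count nor the counts by mouse were made for other probe sets, so they are not shown to be particular to the members.

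The count of calls depended on single mice, in both groups. Without 1 of the untreated mice it fell from 25 to between 0 and 3, without pristane mouse 1 or 2 it rose to 50 or 60, and without one of the other pristane mice it was between 2 and 16. The median log2 difference over the members was between -0.50 and -0.40 in all of these 14 fits. Shares of all probe sets called at an adjusted p under 0.05 were not counted in these fits. At an unadjusted p under 0.05, between 11% and 15.7% of all probe sets were lower in them. Of the named members that passed, Ndufv1 did so in 12 of the 14 fits, Ndufa11 in 10, Cox5a in 8 and Ndufa9 in 6. Sdhb, Uqcrc1, Cyc1 and Cox8a passed in 3, and Sdha, Cox6c, Cox7a2, Atp5g1, Atp5o and Atp5j2 in 2.

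**Figure D2:**
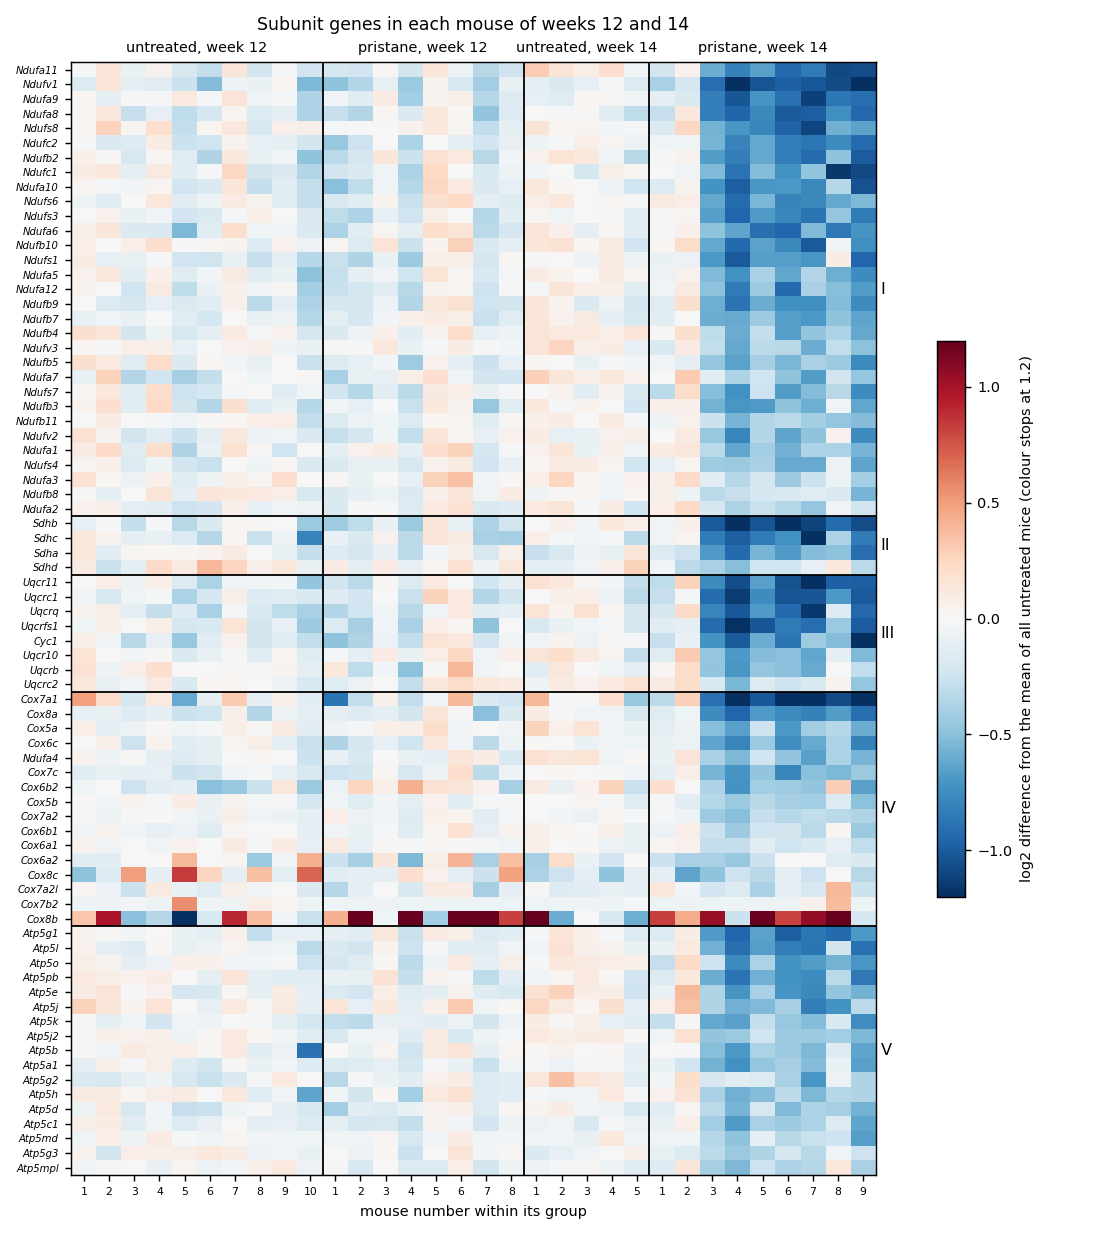
Log2 difference of each subunit gene (rows, grouped by complex I to V) from its average over all untreated mice, in every mouse of weeks 12 and 14 (columns). Blue is lower and red higher, and the colour stops at 1.2. At week 14 pristane mice 3 to 9 are blue over nearly all genes and mice 1 and 2 are pale, while Cox8b varies in every group.

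Promoter sequences of RefSeq (GRCm38.p6) were found for 63 of the 76 genes. They are shown for the member of each complex with the largest fall among those that passed at week 14, since these genes fell together in the same mice. Each run holds the 250 bases before the start site of the table, written 5′ to 3′ on the strand of the gene. For Atp5g1 that site lies inside the annotated gene, so the 63 bases within the gene were left out and 187 are shown. Capitals mark motifs found on either strand: CGCATGCG for NRF1, AAGGTCA for the receptor ESRRA, CCGGAAG for GABPA and other ETS factors, AAGATGGC for YY1 and GGGCGGGG for SP1 and other GC box factors. None of these motifs lies inside another.
Ndufa11, complex I, chr17:56717512-56717761 (plus strand): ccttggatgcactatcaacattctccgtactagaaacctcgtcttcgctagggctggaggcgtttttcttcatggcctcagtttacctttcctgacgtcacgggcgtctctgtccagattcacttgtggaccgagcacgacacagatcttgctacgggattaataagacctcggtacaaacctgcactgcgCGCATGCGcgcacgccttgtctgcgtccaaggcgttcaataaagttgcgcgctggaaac
Sdhb, complex II, chr4:140961021-140961270 (plus strand): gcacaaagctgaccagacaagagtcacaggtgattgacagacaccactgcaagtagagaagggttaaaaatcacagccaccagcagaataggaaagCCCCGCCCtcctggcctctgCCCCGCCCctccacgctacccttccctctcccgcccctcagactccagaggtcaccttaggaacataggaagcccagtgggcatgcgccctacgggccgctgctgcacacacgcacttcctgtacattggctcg
Uqcrc1, complex III, chr9:108936398-108936647 (plus strand): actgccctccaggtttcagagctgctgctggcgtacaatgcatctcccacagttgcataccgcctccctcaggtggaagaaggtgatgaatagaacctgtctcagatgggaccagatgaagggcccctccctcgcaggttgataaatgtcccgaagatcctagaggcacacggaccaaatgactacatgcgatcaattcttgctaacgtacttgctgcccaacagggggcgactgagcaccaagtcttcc
Cox8a, complex IV, chr19:7217617-7217866 (minus strand): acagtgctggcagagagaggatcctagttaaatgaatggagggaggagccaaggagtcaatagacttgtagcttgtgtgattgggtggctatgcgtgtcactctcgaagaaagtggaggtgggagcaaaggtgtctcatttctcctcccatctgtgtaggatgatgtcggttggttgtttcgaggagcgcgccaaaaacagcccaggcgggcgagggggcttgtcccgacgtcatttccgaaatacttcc
Atp5g1, complex V, chr11:96075695-96075881 (minus strand): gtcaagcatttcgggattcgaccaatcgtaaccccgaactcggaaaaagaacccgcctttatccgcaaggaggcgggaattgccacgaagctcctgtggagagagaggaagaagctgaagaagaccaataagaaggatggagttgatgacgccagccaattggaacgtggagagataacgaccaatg

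The Ndufa11 window held the NRF1 motif, which reads the same on both strands, and the Sdhb window held the GC box motif in 2 places on the other strand. None of these letters were found in the other 3 windows. Over windows of 300 bases, 250 before and 50 after the start, the NRF1 motif was in 14.3% of the 63 members and 2.07% of the 27025 genes of the table. The YY1 motif was in 15.9% and 3.19%, the ETS motif in 23.8% and 9.93%, and the ESRRA motif in 11.1% and 5.38%. The GC box motif was in 17.5% of members and 19.6% of all genes. At least 1 of the motifs was in 36 of the 63 members (57.1%) and in 33.7% of all genes. Of the 23 members with a promoter that were lower at week 14 it was in 9 (39.1%), which is nearer to the share of all genes than to that of all members. A match is a run of letters and not evidence of binding.

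Complex I, the entry point of electrons from NADH, had 11 of 31 members lower at week 14, with a median log2 difference of -0.49 over all 31. All 31 estimates were below 0, from -0.82 to -0.20. Ndufa11, a membrane-arm accessory subunit, had values of 10.57, 10.43, 10.34, 10.47 and 10.23 in the untreated mice, and 9.19 in the lowest, 9.46 in the median and 10.33 in the highest pristane mouse. Only pristane mouse 2 reached the untreated range. The log2 difference was -0.82 ± 0.18 (SE), with adjusted p = 0.0208. Its second probe set, far dimmer, showed -0.03. Ndufv1, which binds NADH and flavin mononucleotide, ranged from 11.42 to 11.58 in untreated mice and from 10.38 to 11.39, median 10.58, in pristane mice. The 9 pristane mice all lay below the 5 untreated mice. It fell by 0.78 ± 0.16 (SE), with adjusted p = 0.0178 in limma, the smallest of the 76. Its second probe set, nearly as bright, was at -0.54 and did not pass, with adjusted p = 0.0568.

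Ndufa9, an accessory subunit at the junction of the matrix and membrane arms, had values of 12.30, 12.26, 12.42, 12.41 and 12.35 in untreated mice against 11.28, 11.53 and 12.28 as lowest, median and highest in pristane mice. Its log2 difference was -0.69 ± 0.16 (SE), adjusted p = 0.0274. Only mouse 1 of the pristane group overlapped the untreated mice. The other complex I members that passed were Ndufa8 (-0.62), Ndufc2 (-0.60), Ndufa5 (-0.49), Ndufb7 (-0.48), Ndufb4 (-0.47), Ndufv3 (-0.43), Ndufb5 (-0.40) and Ndufb11 (-0.37), as log2 differences. Of the catalytic core, the subunits Ndufs1, Ndufs7, Ndufs8 and Ndufv2, which bind iron-sulfur clusters, had differences of -0.51, -0.39, -0.62 and -0.37, and Ndufs3, which binds none, was at -0.56. These 5 did not pass in their brightest probe sets, with adjusted p between 0.0546 and 0.169. A dimmer probe set of Ndufs7 (-0.78, adjusted p = 0.0334) and one of Ndufs8 (-0.86, adjusted p = 0.0475) did pass. Other dimmer ones of Ndufs8 and that of Ndufv2 did not.

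Complex II, succinate dehydrogenase, which also serves the citrate cycle, had 2 of 4 members lower. Sdhb, its iron-sulfur subunit, had values of 11.34, 11.39, 11.30, 11.46 and 11.39 in untreated mice. In pristane mice 1 and 2 it was 11.28 and 11.39, and in mice 3 to 9 it lay between 10.06 and 10.41. The fall was 0.89 ± 0.22 (SE) on the log2 scale, adjusted p = 0.0329, the largest among members that passed. Sdha, the flavoprotein that binds succinate, ranged from 12.22 to 12.64 in untreated and from 11.56 to 12.33, median 11.94, in pristane mice, and 7 of 9 pristane mice lay below the untreated range. It fell by 0.48 ± 0.13 (SE), adjusted p = 0.0400. Its second probe set, nearly as bright, was at -0.35 and did not pass, with adjusted p = 0.209. The membrane anchors Sdhc and Sdhd had log2 differences of -0.60 and -0.24 and did not pass, with adjusted p = 0.0895 and 0.161.

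Complex III, the cytochrome bc1 complex, had the lowest median of the complexes, -0.62, although 2 of 8 members passed. Uqcrc1, a core protein that faces the matrix, had values of 9.84, 9.90, 9.92, 9.77 and 9.52 in untreated mice, and 8.70, 8.92 and 9.82 as lowest, median and highest in pristane mice. Mice 1 and 2 lay within the untreated range and the other 7 below it. The log2 difference was -0.72 ± 0.18 (SE), adjusted p = 0.0329. Cyc1, which carries the haem of cytochrome c1, ranged from 10.53 to 10.65 in untreated and from 9.39 to 10.53, median 10.01, in pristane mice. The 9 pristane mice lay below the 5 untreated mice, by a narrow margin for mouse 2. It fell by 0.62 ± 0.16 (SE), adjusted p = 0.0380. Uqcr11, a small subunit, had a larger difference of -0.79 ± 0.24 (SE) that did not pass, with adjusted p = 0.0615. The Rieske protein Uqcrfs1, at -0.62, missed the threshold at adjusted p = 0.0515.

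**Figure D3:**
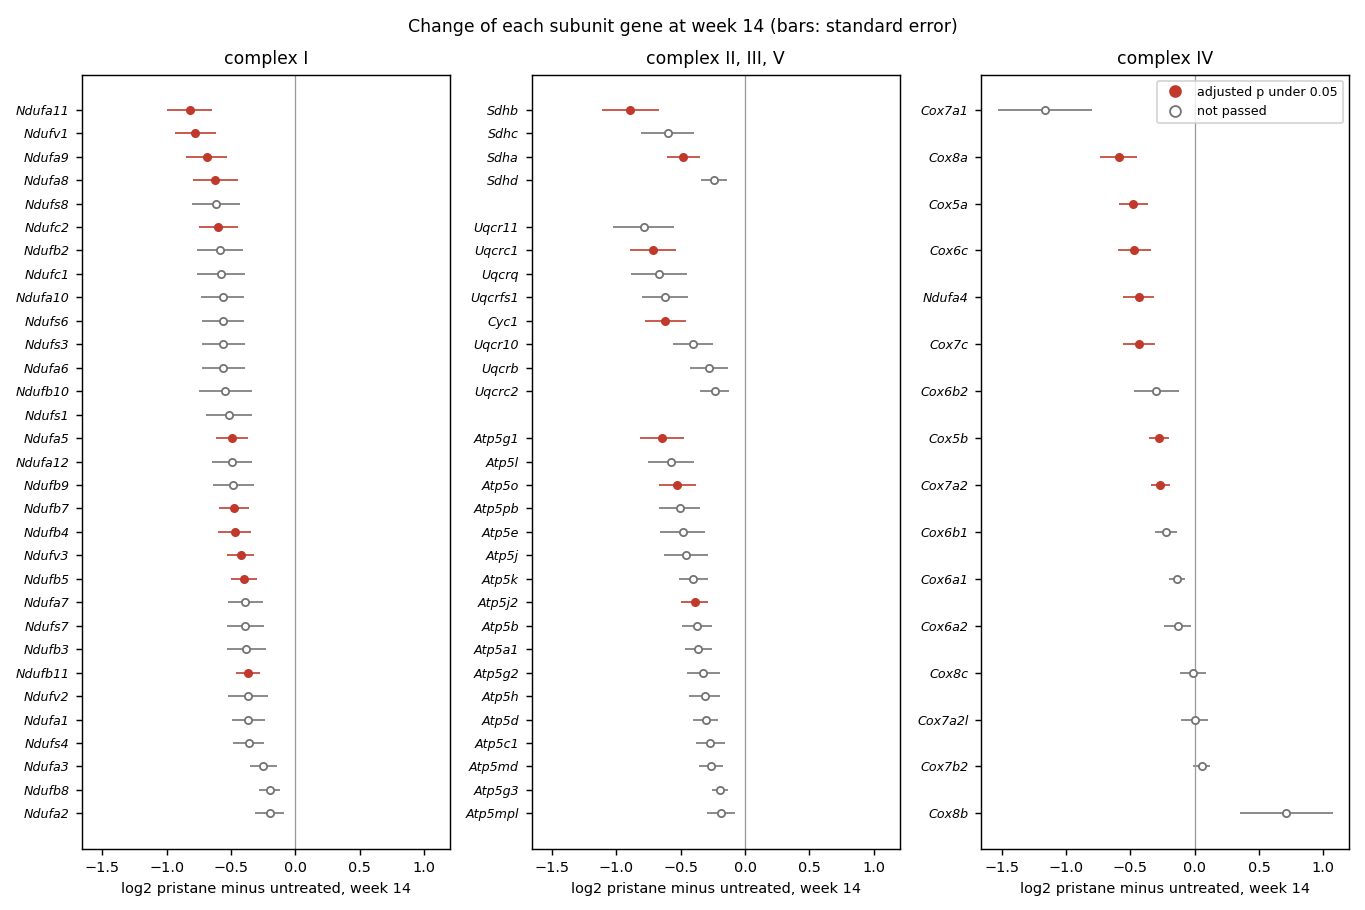
Log2 difference of pristane minus untreated kidneys at week 14 (horizontal axis) for each of the 76 genes, by complex, with bars of 1 standard error. Filled red points are the 25 genes with an adjusted p under 0.05. The estimates lie left of 0 for 74 genes, and Cox8b, at 0.71, lies farthest right.

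Complex IV, cytochrome c oxidase, was the most mixed. It had 7 of 16 members lower and a median of -0.27. Cox8a, a small membrane subunit, had values of 10.70, 10.58, 10.56, 10.57 and 10.42 in untreated mice, and 9.66, 9.85 and 10.56 as lowest, median and highest in pristane mice. Its difference was -0.59 ± 0.15 (SE), adjusted p = 0.0322, with 7 of 9 mice below the untreated range. Its dimmer probe set also passed, at -0.75 with adjusted p = 0.0420. Cox5a, a nuclear-encoded subunit on the matrix side, ranged from 12.10 to 12.45 in untreated and from 11.49 to 12.12, median 11.76, in pristane mice, and fell by 0.48 ± 0.11 (SE), adjusted p = 0.0275. Only mouse 2 overlapped the untreated mice. Its other probe sets, which are also bright, showed -0.14 and -0.09, and neither passed. Cox6c fell by 0.47 ± 0.13 (SE), adjusted p = 0.0428. Its second probe set, nearly as bright, was at -0.19 and did not pass, with adjusted p = 0.211. Ndufa4 (-0.44), Cox7c (-0.44), Cox5b (-0.28) and Cox7a2 (-0.27) also passed.

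The tissue isoforms of complex IV did not follow one rule. Cox7a1, the form of heart and skeletal muscle, had values of 7.88, 7.46, 7.50, 7.69 and 7.03 in untreated mice, and 5.32, 6.41 and 7.77 as lowest, median and highest in pristane mice. Its difference, -1.17 ± 0.36 (SE), was the largest of all 76 but did not pass, with adjusted p = 0.0668. Cox7a2, its partner in most tissues, ranged from 13.99 to 14.10 in untreated and from 13.56 to 14.06, median 13.75, in pristane mice, and passed at -0.27 ± 0.07 (SE), adjusted p = 0.0445. For the Cox6a pair the differences were -0.14 for Cox6a1 and -0.13 for the muscle form Cox6a2, and for the Cox6b pair -0.22 for Cox6b1 and -0.30 for the testis form Cox6b2. None of these 4 passed, with adjusted p between 0.125 and 0.515.

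Cox8b, the heart and muscle partner of Cox8a that brown fat also expresses, was the only member with a sizeable estimate above 0. Its values were 8.66, 6.77, 7.36, 7.17 and 6.78 in untreated mice of week 14, and 7.10, 8.19 and 8.73 as lowest, median and highest in pristane mice. The groups overlapped, and the difference of 0.71 ± 0.36 (SE) did not pass, with adjusted p = 0.262. At week 12 the difference was 0.95 ± 0.39 (SE), adjusted p = 0.762, with values from 5.40 to 8.34 in untreated and from 6.95 to 9.25 in pristane mice. Without untreated mouse 10 it was 0.93 ± 0.41 (SE), adjusted p = 0.452. The list of 7 fat markers had 0 members called at week 14 and a median log2 difference of -1.38 (4 lower at an unadjusted p under 0.05), and Ucp1 of brown fat was at -1.75. The part of fat tissue in the values of Cox8b and Cox7a1 was not tested. Cox7a2l, at -0.00, and the testis forms Cox8c, at -0.01, and Cox7b2, at 0.05, had adjusted p of 0.737 or more, and the last lay at or near the floor in most mice.

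**Figure D4:**
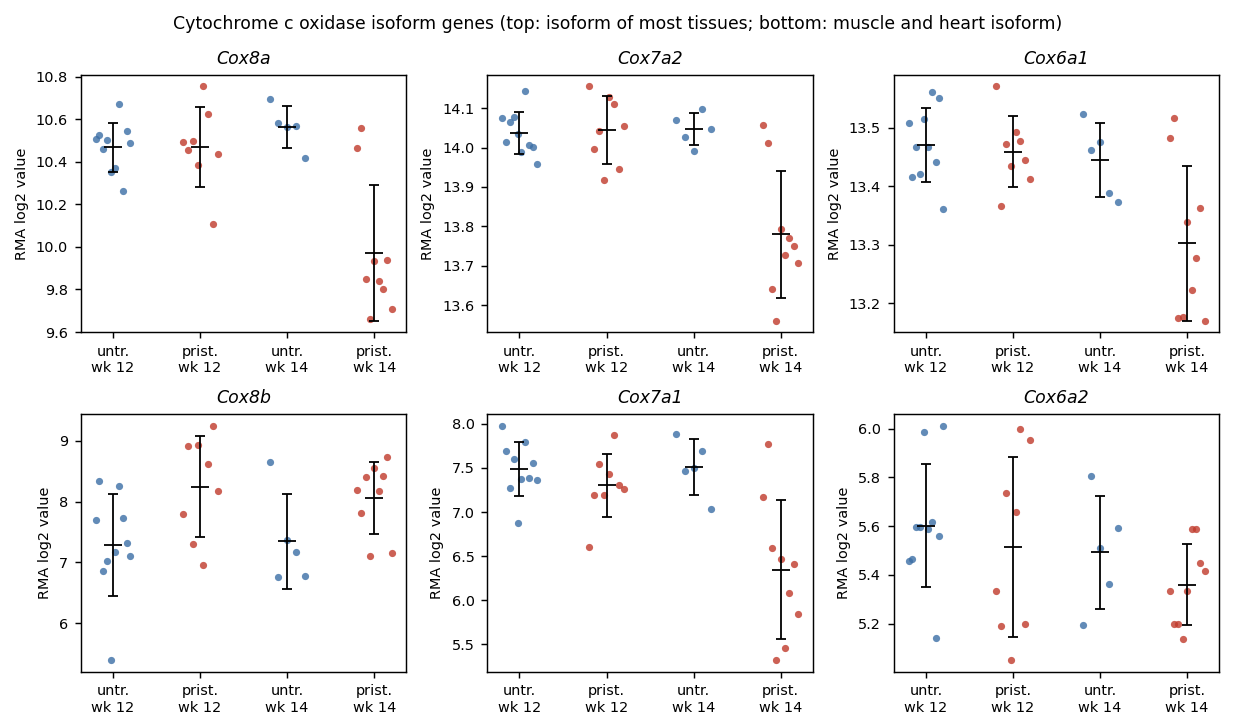
RMA log2 values (vertical axes, each with its own range) of 3 pairs of cytochrome c oxidase isoform genes in untreated (blue) and pristane (red) mice of weeks 12 and 14. Each point is 1 mouse, and black bars give the mean and SD. Cox8a and Cox7a2 are lower in 7 of 9 pristane mice at week 14, Cox7a1 is also low with a wide spread, and Cox8b is not lower.

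Complex V, ATP synthase, had 3 of 17 members lower and a median of -0.37, with all 17 estimates below 0. Atp5g1, one of 3 genes for the c subunit of the rotor ring, had values of 11.66, 11.84, 11.75, 11.66 and 11.52 in untreated mice, and 10.70, 10.99 and 11.78 as lowest, median and highest in pristane mice. It fell by 0.65 ± 0.17 (SE), adjusted p = 0.0394, and only mouse 2 was as high as the untreated mice. The other c subunit genes, Atp5g2 and Atp5g3, were at -0.32 and -0.19 and did not pass. Atp5o, a stalk subunit, fell by 0.53 ± 0.14 (SE), adjusted p = 0.0443, and Atp5j2, the f subunit of the membrane part, by 0.39 ± 0.11 (SE), adjusted p = 0.0438. Their second probe sets were at -0.29 and -0.48 and did not pass, with adjusted p = 0.153 and 0.0619. The catalytic subunits Atp5a1 and Atp5b had differences of -0.36 and -0.37, with adjusted p = 0.0530 and 0.0660.

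Markers of several cell types of the kidney also moved. At week 14 in the limma fit, 3 of 8 proximal tubule, 1 of 5 thick ascending limb, 3 of 4 distal convoluted tubule and 1 of 5 collecting duct markers were lower. So were 2 of 5 endothelium markers, while 0 of 4 podocyte markers passed (1 lower at an unadjusted p under 0.05), and 0 markers of these 6 lists were higher. The shares over all probe sets were 3.73% lower and 4.57% higher. Of the macrophage and monocyte markers 7 of 8 were higher, as were 3 of 4 T cell, 1 of 3 B and plasma cell, 5 of 6 fibroblast and matrix and 3 of 5 tubular injury markers. In pristane mice 1 and 2, the mean of the proximal tubule markers was -0.04 and 0.02 from the untreated average, and in the other 7 mice it lay between -1.64 and -0.49. The tubular injury markers, which include Havcr1 and Lcn2, were 1.44 and 0.23 above it in mice 1 and 2 and 2.52 to 4.36 above it in the others. For the macrophage markers the values were 1.66 and 1.76 against 3.03 to 3.72. Adrenal markers were high in pristane mice 4, 5 and 6, at 1.59, 0.83 and 0.18 from the untreated average, against -1.62 to -1.47 in the other 6. Median log2 differences at week 14 were -0.82 for the proximal tubule list, -0.11 for the thick ascending limb and -1.09 for the distal convoluted tubule. In pristane mice of week 12 the median mouse was at 1.99 for macrophage and 0.99 for tubular injury markers, from the untreated average. Those medians were -0.39 for distal convoluted tubule, -0.36 for collecting duct, -0.08 for proximal tubule and -0.07 for thick ascending limb markers. The part of cell makeup in the fall of the subunit genes was not tested.

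Other mitochondrial genes were counted in 6 lists. Of their 110 measured genes, 18 (16.4%) were lower at week 14 and 0 higher, against 3.73% and 4.57% of all probe sets. These calls also depended on single mice. Without 1 of the untreated mice between 0 and 4 genes were lower, without pristane mouse 1 or 2 it was 51 or 57, and without one of the other pristane mice between 3 and 14. Calls over all probe sets were not counted in these fits. At an unadjusted p under 0.05, between 53.6% and 72.7% of the 110 genes were lower in them, against 11% to 15.7% of all probe sets. Of electron transport genes outside the naming pattern, 4 of 13 measured were lower at week 14, with a list median of -0.45. They included Sqor (-0.62), which passes electrons from sulfide to ubiquinone, the acyl carrier subunit Ndufab1 (-0.59) and Cox4i1 (-0.36). Of the citrate cycle and pyruvate dehydrogenase genes, 4 of 17 were lower, with a median of -0.41: Dlat, the acetyl transferase of pyruvate dehydrogenase, at -0.93 with adjusted p = 0.0206, Idh3a (-0.89), Suclg1 (-0.68) and Idh3g (-0.37).

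Assembly factors had 4 of 37 lower and a median of -0.27, and those 4, Ndufaf4 (-0.80), Ecsit (-0.77), Nubpl (-0.74) and Ndufaf1 (-0.70), all serve complex I. Of 12 genes listed for ATP, phosphate and ion transport 2 were lower, the ADP/ATP carrier Slc25a5 (-0.28) and Ckmt1 (-0.43), which is not a carrier but the creatine kinase of mitochondria. Of 16 genes for import and inner membrane organization 2 were lower, Mfn2 (-0.50), which fuses outer membranes, and Timm23 (-0.22), the channel of the inner membrane. Of 15 regulators of mitochondrial biogenesis 2 were lower, the nuclear receptors Ppara (-1.35 ± 0.28 SE, adjusted p = 0.0175) and Esrrg (-0.64). At week 12 the 6 lists had 0 calls in limma, and at an unadjusted p under 0.05 they had 0 genes lower and 4 higher (3.64%), against 1.73% and 4.44% of all probe sets. Without untreated mouse 10 there were 0 calls, and 2 lower and 5 higher at an unadjusted p under 0.05, against 1.71% and 8.17%.

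**Figure D5:**
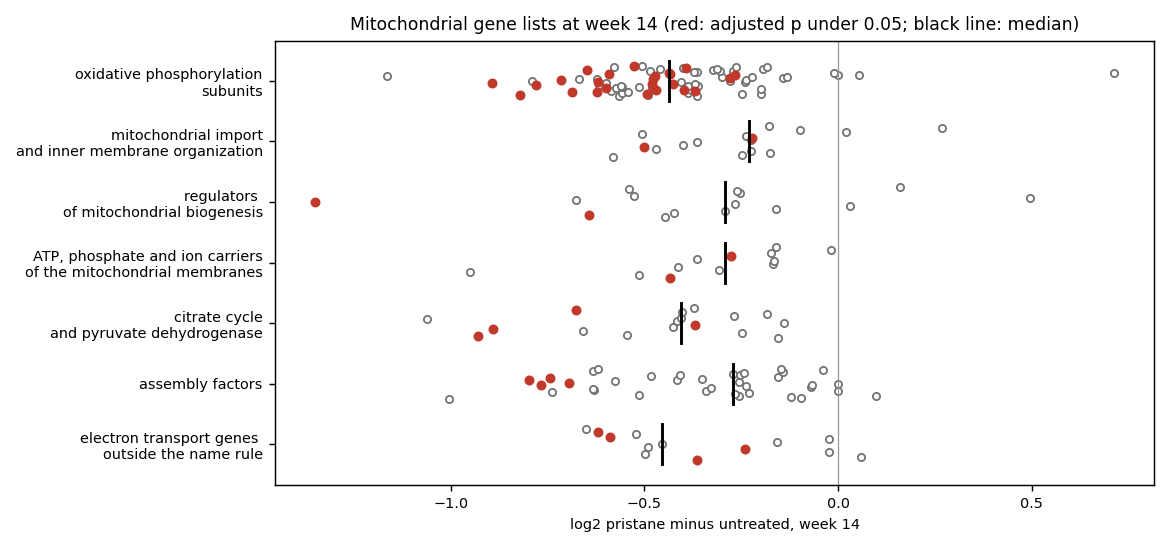
Log2 difference of pristane minus untreated kidneys at week 14 (horizontal axis) for each measured gene of 6 other mitochondrial lists and of the subunit set (rows). Filled red points have an adjusted p under 0.05, open points did not pass, and black lines are list medians, which lie between -0.45 and -0.23.

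Between weeks 12 and 14 the pristane groups were compared with each other. Of the 76 members, 10 were lower at week 14 and 0 higher, against 0.768% of all probe sets lower and 1.15% higher. All 10 were among the 25 of week 14, but both comparisons use the same week 14 pristane mice. Uqcrc1 ranged from 9.48 to 10.11, median 9.65, at week 12 and fell by 0.66 ± 0.15 (SE) to its week 14 values given above, adjusted p = 0.0453. Ndufv1 and Ndufa9 both fell by 0.63 ± 0.14 (SE), with adjusted p = 0.0423 and 0.0432. The other 7 were Atp5g1, Sdha, Cox5a, Ndufb7, Ndufv3, Cox7a2 and Cox5b, from -0.58 to -0.25. The median over the 76 was -0.35. At an unadjusted p under 0.05, 66 were lower and 0 higher, against 11% and 8.85% of all probe sets. The count was 46 without week 14 mouse 1, 58 without mouse 2, 11 without week 12 mouse 4 and 0 without any one of the other 14 mice. No share over all probe sets was counted in these fits.

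The difference between the pristane effects at weeks 14 and 12, tested as an interaction in limma, passed for 0 of 76 members, as for 0% of all probe sets in either direction. At an unadjusted p under 0.05, 61 members were lower at week 14 than at week 12 relative to their controls and 0 higher, against 11.3% of all probe sets lower and 4.52% higher. The estimates were below 0 for 73 of 76, with a median of -0.43. Cox5a came nearest to the threshold at -0.51 ± 0.11 (SE), adjusted p = 0.0703. A trended and robust fit also passed 0, while the filter at the 40th percentile passed 18 of 74, against 4.11% of the probe sets it kept. Without week 14 pristane mouse 1 the count was 39 and without mouse 2 it was 53, and it was 0 in the other 30 fits, among them the one without untreated mouse 10 of week 12. Calls over all probe sets were not counted in the fits that left out a mouse.

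Untreated mice of weeks 14 and 0 were also compared, and the direction depended on the scaling of the arrays. With the deposited values 2 members (2.63%) were lower at week 14 and 9 (11.8%) higher, against 4.52% of all probe sets lower and 8.78% higher. Among the probe sets above the 40th percentile, fitted alone, 1 of 74 members was lower and 12 higher. The shares of those probe sets were 9.81% lower and 19.2% higher, so the members had no excess of calls there. With each array centred on its median 0 were lower and 29 higher, and with quantile normalization 12 were lower and 3 higher. The median over the members was 0.08, 0.19 and -0.04 under these scalings, and centring moved the median of all probe sets to 0.10. Shares of all probe sets called with centring and with quantile normalization were not counted. The higher ones with the deposited values included Atp5j, a coupling factor of ATP synthase, at 0.79 ± 0.21 (SE, adjusted p = 0.0323), and the complex I genes Ndufs8, at 0.57 ± 0.13 (SE, adjusted p = 0.0187), and Ndufb10, at 0.49 ± 0.11 (SE, adjusted p = 0.0139). Atp5j ranged from 10.44 to 11.52 at week 0 and was 11.97, 11.84, 11.74, 11.91 and 11.60 at week 14. No mouse of week 0 reached the week 14 range for this gene. When each mouse was left out, Ndufb10 passed in 12 of 12 fits, Ndufs8 in 11 and Atp5j in 7. The lower ones were Atp5c1 (-0.21) and Atp5a1 (-0.15). Between untreated mice of weeks 14 and 12, 0 members passed in limma in either direction, as did 0% of all probe sets. At an unadjusted p under 0.05, 1 was lower and 8 were higher, against 3.36% and 6.94% of all probe sets, and a trended and robust fit passed 0. Without untreated mouse 10 of week 12, 0 passed, and 0 were lower and 7 higher at an unadjusted p under 0.05, against 2.83% and 9.29%.

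Most members varied together, but the same was not counted for other probe sets. No share over genes of like brightness can therefore be set beside the counts. Over the 95 mice, 71 of 76 had a Pearson correlation over 0.5 with the mean of the other members, with a median of 0.81, but the low week 14 mice form a cluster of their own. Over the 86 mice without that group, 48 were over 0.5 and the median was 0.59. The members most like the rest over 95 mice were Sdhb (r = 0.94), Uqcrfs1 (0.93) and Ndufb2 (0.93), and they were at 0.81, 0.78 and 0.83 over the 86. The least alike were Cox8b (-0.18), Cox7b2 (-0.16) and Cox8c (-0.11), of which the last 2 are dim. Over the 86 they were at -0.04, -0.28 and -0.55, so their order turned. Sdha stood at 0.69 over 95 mice and at -0.01 over 86. Sdhd, a bright member with a mean of 11.30, was at 0.23 over 95 mice and at -0.22 over 86, below Cox8b. Without untreated mouse 10 of week 12, 71 of 76 were over 0.5 in the 94 mice left and 49 in the 85, with medians of 0.82 and 0.57, and no correlation moved by more than 0.0788. All values come from the same arrays and share their normalization, so the correlations are descriptions.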

How the data were processed

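Total kidney RNA of SNF1 mice was extracted with Trizol, labelled with the NuGEN Ovation Biotin system and hybridized to Affymetrix HT MG-430 PM arrays. The authors normalized the intensities with RMA, and the deposited values are log2. RMA and Partek are named in the submitters' processing notes, and the methods of the study name R and Bioconductor for the mouse arrays. All 45141 probe sets are present on all 95 arrays. Here the 104 control probe sets were dropped and 45037 were tested. Of all values, 20.3% lay within 0.01 of the floor of 2.21, and array medians lay between 4.22 and 4.57. RMA background correction and summarization can compress differences of dim and of very bright probe sets. The number of arrays limits the precision.

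Genes were named from the platform annotation, which lists 29449 of these probe sets, 551 of them with several symbols. No batch, plate or scan date was used here. Groups came from the treatment and time point labels.

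Analyses used R 4.3.3 and limma 3.58.1. Each comparison was fitted on its own groups alone (lmFit and eBayes), with Benjamini-Hochberg adjustment over all 45037 probe sets, and a member was called at an adjusted p under 0.05. Each p-value sets the difference between group means against the spread between mice, pooled over the groups compared and moderated across all probe sets. The test was tried on simulated data. The members, the lists, the motifs and the tests were chosen with earlier results of these data known. Named were the 3 members of each complex with the largest change that passed at week 14 (the largest by size where fewer passed), the 3 largest in the direction opposite to most, the Cox tissue isoform pairs, up to 3 genes of each other list, the 3 largest between weeks, and the 3 most and 3 least like the mean of the members; other members were named after their values were seen. Idh3g, Ndufaf1 and the catalytic subunits are outside the rule.

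The replicate numbers were checked for pairing by the correlation of same-numbered mice. No week had every pair above 0.1, and mice were left unpaired. The pairs above it ran from 1 of 8 at week 12 to 5 of 9 at week 2. Mice of different numbers were not correlated, so the check cannot exclude pairing. Alternatives were median centring, quantile normalization, a filter at the 40th percentile, all 11 groups in a single fit, a trended and robust fit, a fold change over 2, the replicate number as a block, averaging the probe sets of each gene, and leaving out single mice. Comparisons of mice with spontaneous disease and of other strains were not analysed here.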

Additional observations from a re-analysis of the deposited data

Results flagged for a closer look

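In groups of 4 to 10 mice, the highest or lowest mouse was set apart by its gap to the next one, relative to the range of the group. Of 66 groups of complex means, 3 had such a mouse, and of 58 groups of named members at week 14, 2 did; chance gives about 1 in 20.

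The lowest untreated mouse of week 4 had a complex II mean of -0.16 from the average of all untreated mice, on the log2 scale. The lowest untreated mouse of week 12, mouse 10, had a complex II mean of -0.41 and a complex V mean of -0.21. In this mouse Atp5b, the catalytic beta subunit of ATP synthase, was at 11.77 and Sdhc at 10.08, differences of -0.90 and -0.80 from the untreated average. The same mouse had the high macrophage and tubular injury markers given above, and their part in these values was not tested.

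Cox7b2, which lies at the floor in most mice, reached 2.25 in the highest untreated mouse and 2.65 in the highest pristane mouse of week 14.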

How the results depend on the processing

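Of the counts of members called lower at week 14 (25 with the values as deposited), a fold change over 2 left 0, the filter at the 40th percentile gave 49 and all 11 groups in a single fit gave 70. Leaving out each mouse gave 0 to 60. Median centring gave 37, quantile normalization 32, a trended and robust fit 24 and averaging the probe sets of each gene 22, of which 25, 25, 24 and 16 were among the 25. With the replicate number as a block, 5 pairs of mice remain, and 0 members passed at week 14, with a median of -0.35; the numbers are not known to pair mice. For untreated week 14 against week 0 (2 lower and 9 higher), the counts of lower and higher were 0 and 0 with the fold, 0 and 29 with centring, 12 and 3 with quantile normalization, and 0 and 2 with the block. The count of lower ones was 1 with the filter, 6 with the single fit and 1 with the mean of probe sets, and leaving out each mouse gave 2 to 4 lower and 1 to 15 higher. For pristane week 14 against week 12 (10 lower), the count was 0 with the fold, 18 with quantile normalization, 38 with the filter, 67 with the single fit, 0 with the block and 6 with the mean of probe sets, and 0 to 58 when each mouse was left out. For the interaction (0 lower), it was 18 with the filter and 56 with the single fit, and 0 to 53 when each mouse was left out. All other counts, of weeks 2, 4, 8 and 12 and of untreated weeks 14 and 12, were 0 under each of these alternatives. Shares of all probe sets at an adjusted p under 0.05 were counted only for the deposited values, the fold and the filter. The filter called 6.48% of its probe sets lower for pristane week 14 against week 12, and 9.81% for untreated week 14 against week 0. The single fit lends the small spread of the other groups to the week 14 pristane mice, whose spread is wider, and the filter tests fewer probe sets. The causes of the changes in count, with these settings and with the others, were not tested. Leaving out mice for the 6 other lists, and untreated mouse 10 of week 12 for Cox8b and the correlations, was chosen after seeing the data.

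The group mean of complex II in untreated mice of week 14, -0.0234 with the values as deposited, was 0.0326 with centring. In untreated mice of week 0, complex III (-0.123) was at -0.175 with centring, -0.0357 with quantile normalization and -0.0911 with averaged probe sets, and complexes I (-0.107) and V (-0.0859) were at -0.0214 and -0.0250 with quantile normalization. Cox7b2 at week 14 was at -0.00737 with the block. Cox8c ran from -0.0665 to 0.0324 when each mouse was left out, and lay above 0 in 4 of these fits, at 0.0270 and 0.0253 (untreated mice 3 and 5 left out in turn) and at 0.0324 and 0.0144 (pristane mice 2 and 3).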

Other observations

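Of the 76 members, 37 had more than 1 probe set above the 40th percentile. In all 37, the brightest and the next probe set both had a log2 difference below 0 at week 14, with medians of -0.40 and -0.36, and the dimmer one fell more in 22. The sizes differed for some genes. Cox6a1, whose brightest probe set did not pass, was at -0.14 in that probe set and at -0.57 in the next, Ndufc1 was at -0.57 and -1.01, and Ndufs7 at -0.39 and -0.78, whereas Uqcrq was at -0.67 and -0.09. Over the 76 genes, Spearman's rho between the change and the mean level of the probe set was 0.25, a description across genes, which are not independent replicates.

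Untreated mouse 2 of week 8 was the lowest control over all members, at -0.28 from the untreated average, with Cox8b at -1.50, Cox7a1 at -1.23 and Ndufa11 at -0.73. Its macrophage and tubular injury markers were at -0.41 and -0.01, and its proximal tubule markers at -0.01.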
